A study of Mus musculus with 14 samples.

Results

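Coverage at the receptor tyrosine kinase genes Met, Kit, Pdgfra, Egfr, Erbb3, Fgfr1, Igf1r and Axl was compared between single cells of mice injected with B16F10 melanoma cells. These 8 genes were taken by name, with earlier results of these data known. They are 8 of the 58 receptor tyrosine kinases looked up in the mouse annotation, and their windows are among 4376 windows tested along the autosomes and X. Receptor tyrosine kinases cross the cell membrane, bind a growth factor outside and, as pairs, phosphorylate each other inside. This recruits adaptors that switch on the Ras, MAP kinase and PI3 kinase routes. In the melanocyte lineage Kit and its ligand Kitl are needed for survival and migration of pigment cell precursors, and Met answers the scatter factor Hgf.

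The tested cells came from 9 samples of female C57BL/6J mice aged 6 to 8 weeks that had received fluorescently labelled B16F10 cells and no drug. They had been sorted from blood and lung into 43 circulating tumor cells (CTC, in 5 samples), 450 cells of a class named DP (9 samples) and 46 white blood cells (WBC, 6 samples). Cells labelled CTC included lung cells, 1 in sample C1N, 4 in C1R and 10 in C2R. Those labelled WBC included 6 lung cells in C1N, 3 in C1R and 9 in C2R. Another 5 samples, of 1 class each, were 18 CDP, 24 Duplike, 24 PltLike and 22 B16F10 culture cells, with 21 WBC of naive female C57BL/6J mice of the same age at the reference end. B16F10 melanoma cells derive from C57BL/6J mice, so tumor and host share the strain background, and the names DP, CDP, Duplike and PltLike are not spelled out in the labels. The labels do not say whether a sample is 1 mouse, so p-values measure only the spread between these samples.

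The DNA of each of the 648 cells was amplified by MALBAC, a looping whole-genome amplification, and coverage was deposited for 4880 genome bins with a median width of 539 kb. A locus ratio is the mean coverage of the bin over the midpoint of a gene and its neighbour on each side, divided by the cell's own median over the 19 autosomes. A ratio of 1 therefore means the autosomal median of that cell, whatever its total DNA content. It is not the host level at every locus, since naive WBC averaged 0.886 at Met and 1.08 at Igf1r. The autosomal medians themselves gathered near 1.82, 3.72, 5.64, 7.75 and 9.59 on the deposited scale, whose unit is not stated. All 46 WBC and 21 naive WBC lay near 1.82, and all 43 CTC, 24 PltLike and 22 culture cells near 3.72, whereas DP cells spread over 5 levels with 177, 219, 29, 9 and 16 cells. Read counts per cell are unknown, so no counting interval can be given for a coverage value, and a bin of this width holds many genes.

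A profile score between culture (1) and naive WBC (0) was computed for each cell from autosomes that hold none of the 8 genes. Cells above 0.5 are called tumor-profile here and the others host-profile. Tumor-profile cells were 43 of 43 CTC, 267 of 450 DP, 22 of 22 culture, 0 of 46 WBC and 0 of 21 naive WBC. Counts of 0 allow up to 6.52% of WBC and 14.3% of naive WBC. Culture and naive WBC set the ends of the score, so their own counts do not check it. Of the DP cells, 11 had scores between 0.4 and 0.6. The CDP, Duplike and PltLike samples are labelled as naive C57BL/6J mice, yet 18 of 18 CDP, 22 of 24 Duplike and 24 of 24 PltLike cells were tumor-profile. They enter no test below.

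Met, the receptor of hepatocyte growth factor, was the member with the higher ratio in tumor cells and in DP cells. It lies on chromosome 6 from 17463349 to 17573980 (mm10), and the 2 bins used there also hold Cav1, Cav2, Capza2, St7, Wnt2, Asz1 and Cftr. CTC averaged 1.46 ± 0.0698, DP cells 1.22 ± 0.135 and WBC 0.897 ± 0.0388 (SD over the same 5 samples). On the log2 scale CTC rose over WBC by 0.67 (SE 0.0343, limma adjusted p = 8.57e-09) and DP over WBC by 0.39 (SE 0.0545, limma adjusted p = 0.00890), in 5 of 5 samples each time.

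Sample by sample, the Met ratio of CTC was 1.39 in C1L, 1.39 in C1N, 1.51 in C1R, 1.50 in C2R and 1.53 in C3R. That of DP cells was 1.29 in C1L, 1.06 in C1N, 1.12 in C1R, 1.23 in C2R and 1.40 in C3R. That of WBC was 0.862 in C1L, 0.912 in C1N, 0.852 in C1R, 0.912 in C2R and 0.945 in C3R. Neither CTC nor DP samples overlapped WBC, and DP samples C1N and C1R came nearest to WBC. The share of all windows that separate in this way is not given here. Among blood cells only, DP cells exceeded WBC by 0.53 (limma adjusted p = 0.000296, 5 samples), and among lung cells only by 0.053 (adjusted p = 0.926, 3 samples). The 4 samples without a WBC partner of at least 3 cells had DP means of 0.952 in C2N, 1.22 in P1, 1.37 in P2 and 1.16 in P4. C2N, which held DP cells from lung only, was the only DP sample below 1.

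**Figure D1:**
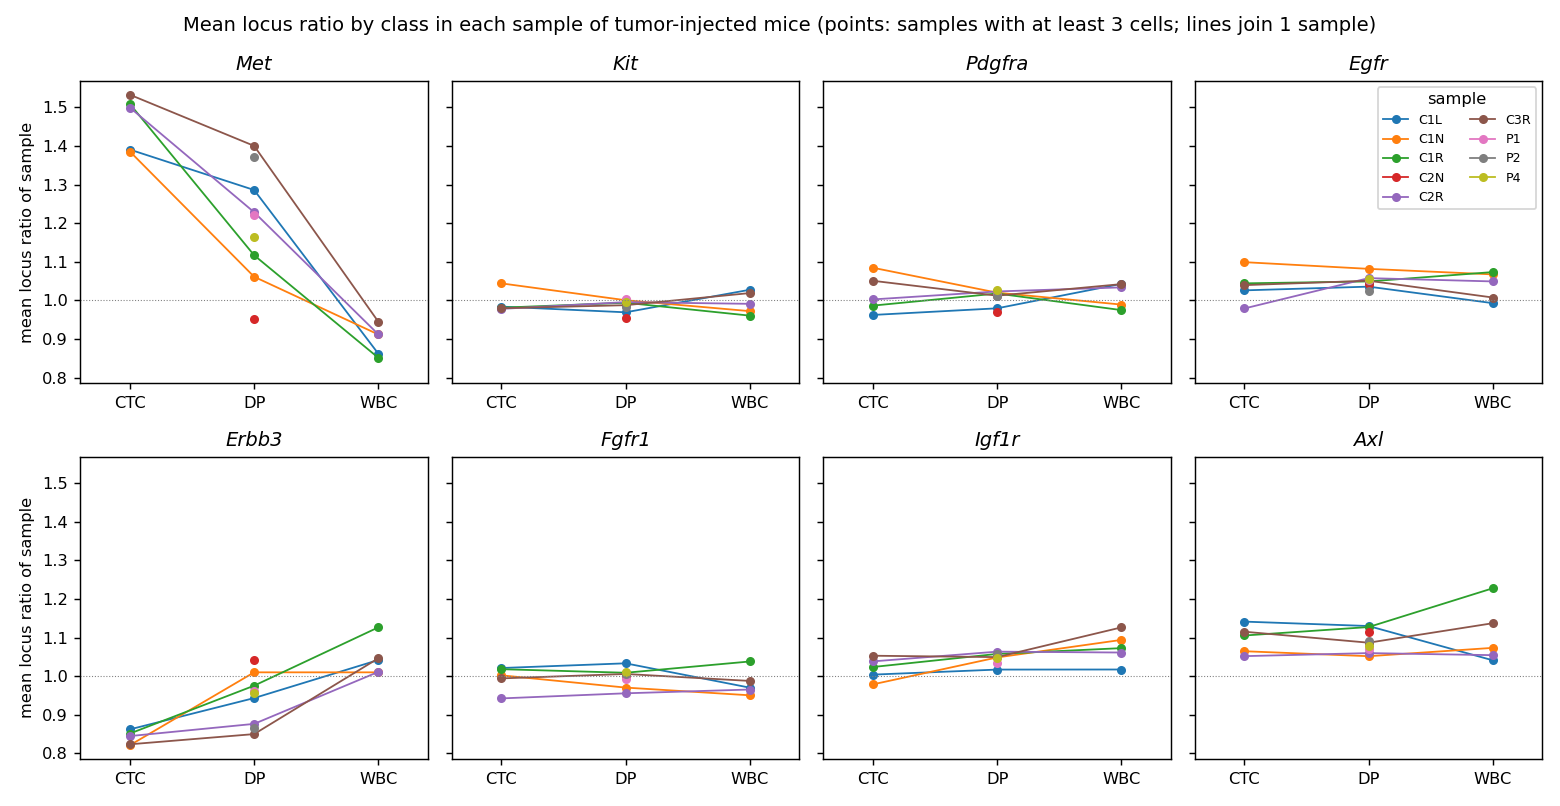
Mean locus ratio (y axis) of CTC, DP cells and WBC (x axis) in each sample of tumor-injected mice with at least 3 cells of the class, 1 panel per gene, lines joining 1 sample. Met falls along CTC, DP and WBC in all 5 joined samples, Erbb3 runs the other way with DP and WBC level in C1N, Igf1r rises slightly toward WBC, and the lines of the other 5 genes cross without a common direction.

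Erbb3, a receptor of neuregulins with little kinase activity of its own that works with ErbB partners, was the member with the lower ratio. It lies on chromosome 10 from 128567523 to 128589635, in a window crowded with 76 protein-coding genes, among them Pmel, a melanosome matrix gene, and Cdk2, a cell cycle kinase. CTC averaged 0.841 ± 0.0178, DP cells 0.931 ± 0.0669 and WBC 1.05 ± 0.0474 (SD, 5 samples). CTC fell by 0.30 against WBC (SE 0.0317, limma adjusted p = 4.11e-06) and DP cells by 0.17 (SE 0.0419, limma adjusted p = 0.0179). CTC were lower in 5 of 5 samples and DP cells in 4, with C1N level.

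The Erbb3 ratio of CTC was 0.862 in C1L, 0.821 in C1N, 0.851 in C1R, 0.845 in C2R and 0.823 in C3R. That of DP cells was 0.943 in C1L, 1.01 in C1N, 0.975 in C1R, 0.876 in C2R and 0.850 in C3R. That of WBC was 1.04 in C1L, 1.01 in C1N, 1.13 in C1R, 1.01 in C2R and 1.05 in C3R. CTC samples lay below every WBC sample, again without a share of all windows to set it against. DP and WBC samples touched, because in C1N the DP cells differed from WBC by only -0.0012 on the log2 scale. The call for DP cells is therefore marginal: leaving out C1L, C1R, C2R or C3R took its limma adjusted p to between 0.0538 and 0.0700 with the difference still between -0.17 and -0.14.

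Lower relative coverage at Erbb3 did not mean a lower deposited value. The bin over Erbb3 averaged 3.13 in CTC and 1.98 in WBC on the deposited scale, and the bin over Met 5.85 in CTC and 1.73 in WBC. The autosomal medians are near 3.72 in CTC and 1.82 in WBC, so Erbb3 stood below the rest of a CTC genome and at or above the rest of a WBC genome. Whether the deposited scale counts copies is not given in the sources used here.

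**Figure D2:**
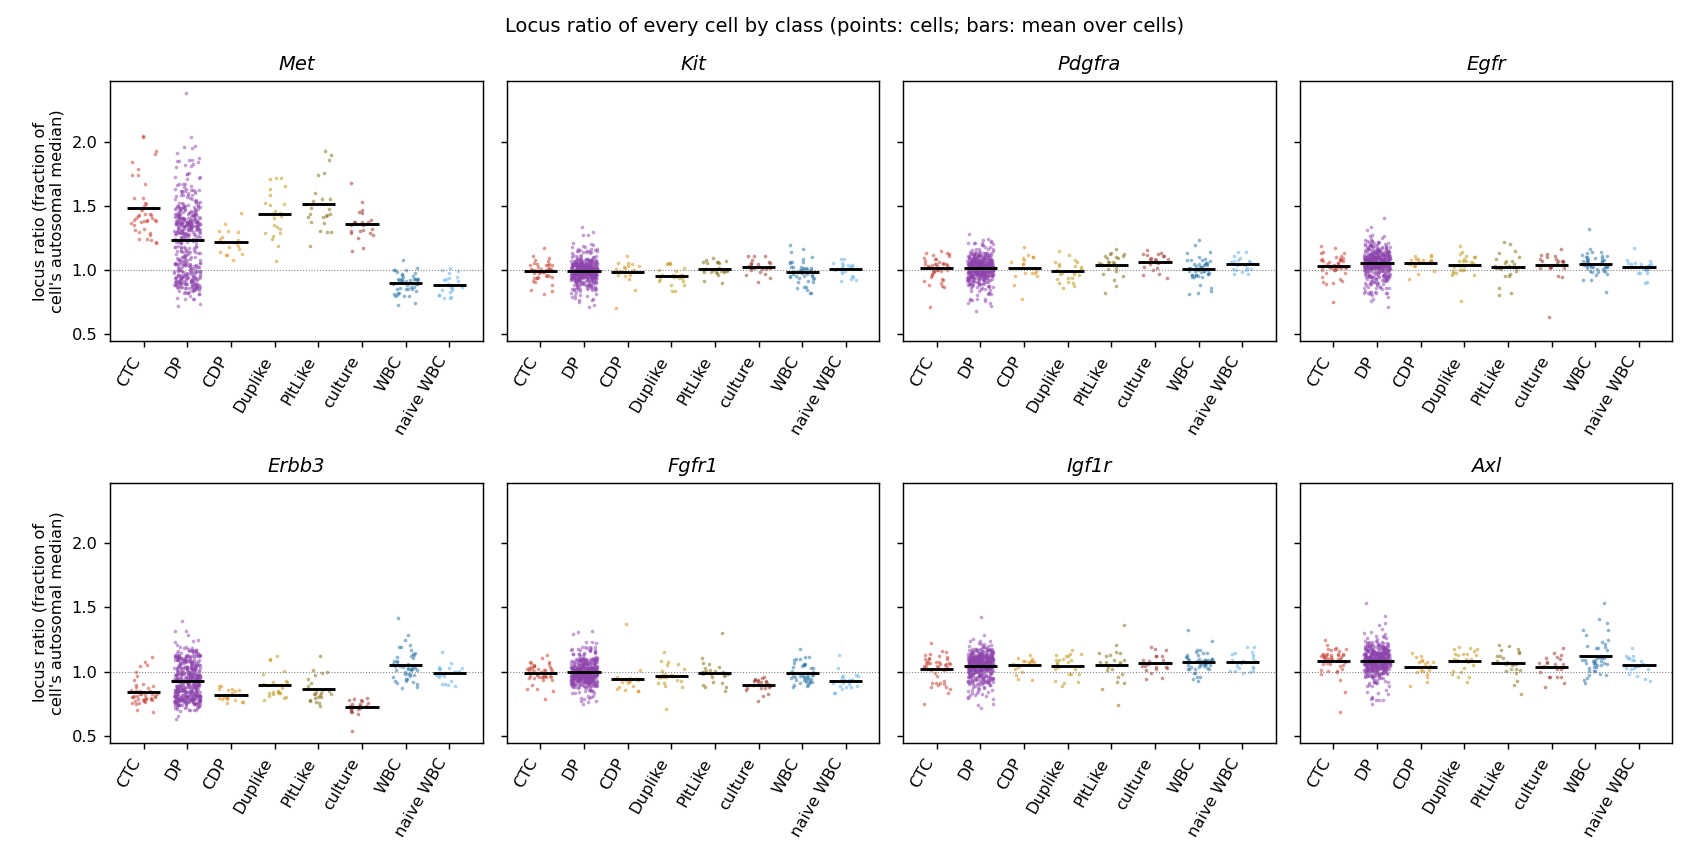
Locus ratio (y axis) of every cell (points) by class (x axis), with the mean over cells as a bar, 1 panel per gene. At Met the WBC and naive WBC stop at 1.08 while DP cells run between 0.716 and 2.38; at Erbb3 the culture cells are the lowest class, and in the other 6 panels the class means lie between 0.894 and 1.12.

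Cell by cell, the highest Met ratio of any WBC, naive mice included, was 1.08. All 43 CTC exceeded it (100%, exact Clopper-Pearson 95% interval 91.8% to 100%), as did 287 of 450 DP cells (63.8%, interval 59.1% to 68.2%). Among DP cells these were 261 of 267 tumor-profile cells and 26 of 183 host-profile cells. At Erbb3, 31 of 43 CTC (72.1%, interval 56.3% to 84.7%) and 183 of 450 DP cells (40.7%, interval 36.1% to 45.4%) fell below the lowest WBC at 0.872. Of these DP cells 180 were tumor-profile and 3 host-profile. Counting error alone enters the intervals, although cells from the same sample are related. The same counts are not given for windows elsewhere in the genome.

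The remaining members did not pass the test in CTC or DP cells against WBC. Egfr, the receptor of epidermal growth factor (chromosome 11, 16752203 to 16913907), averaged 1.04 ± 0.0429 in CTC, 1.06 ± 0.0169 in DP cells and 1.04 ± 0.0361 in WBC (SD, 5 samples). Fgfr1, a fibroblast growth factor receptor (chromosome 8, 25518759 to 25575718), averaged 0.995 ± 0.0317 in CTC, 0.995 ± 0.0313 in DP cells and 0.982 ± 0.0338 in WBC. Neither differed from WBC by more than 0.022 on the log2 scale. The 95% intervals for CTC against WBC were -0.073 to 0.074 at Egfr and -0.051 to 0.088 at Fgfr1.

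Kit, the stem cell factor receptor, and Pdgfra, a platelet-derived growth factor receptor, lie side by side on chromosome 5, from 75574987 to 75656722 and from 75151322 to 75198206. Their windows share 2 of 3 bins, which also hold the vascular receptor Kdr, so they are not separate measurements. Kit averaged 0.993 ± 0.0284 in CTC, 0.989 ± 0.0122 in DP cells and 0.994 ± 0.0289 in WBC, and Pdgfra 1.02 ± 0.0496, 1.01 ± 0.0178 and 1.02 ± 0.0321 in the same order (SD, 5 samples). The interval for CTC against WBC was -0.073 to 0.075 at Kit and -0.081 to 0.082 at Pdgfra, well short of the difference at Met.

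Igf1r and Axl share chromosome 7. Igf1r, the insulin-like growth factor receptor (67952257 to 68233668), averaged 1.02 ± 0.0291 in CTC, 1.05 ± 0.0179 in DP cells and 1.07 ± 0.0403 in WBC. It was lower in CTC than in WBC in 5 of 5 samples, by 0.075 on the log2 scale, and missed the threshold (limma adjusted p = 0.0729). Dividing each cell by its autosomal mean in place of its median gave a difference of -0.087 and an adjusted p of 0.0391. Axl, the receptor of Gas6 (25756500 to 25788924), averaged 1.10 ± 0.0369 in CTC, 1.09 ± 0.0366 in DP cells and 1.11 ± 0.0770 in WBC, where C1R stood highest at 1.23.

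These calls have to be read against the genome, since windows moved broadly. Of all 4376 windows 50.3% passed in CTC against WBC, 19.8% higher and 30.6% lower, and 41.2% passed in DP cells against WBC, 15.3% higher and 25.8% lower. Among the 8 members 1 was higher and 1 lower in both comparisons. Counting either direction on autosomes and X, 5.67% of windows differed as much as Met or more in CTC against WBC, and 5.71% in DP cells against WBC. At Erbb3 the corresponding shares were 30.4% and 33.3%.

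**Figure D3:**
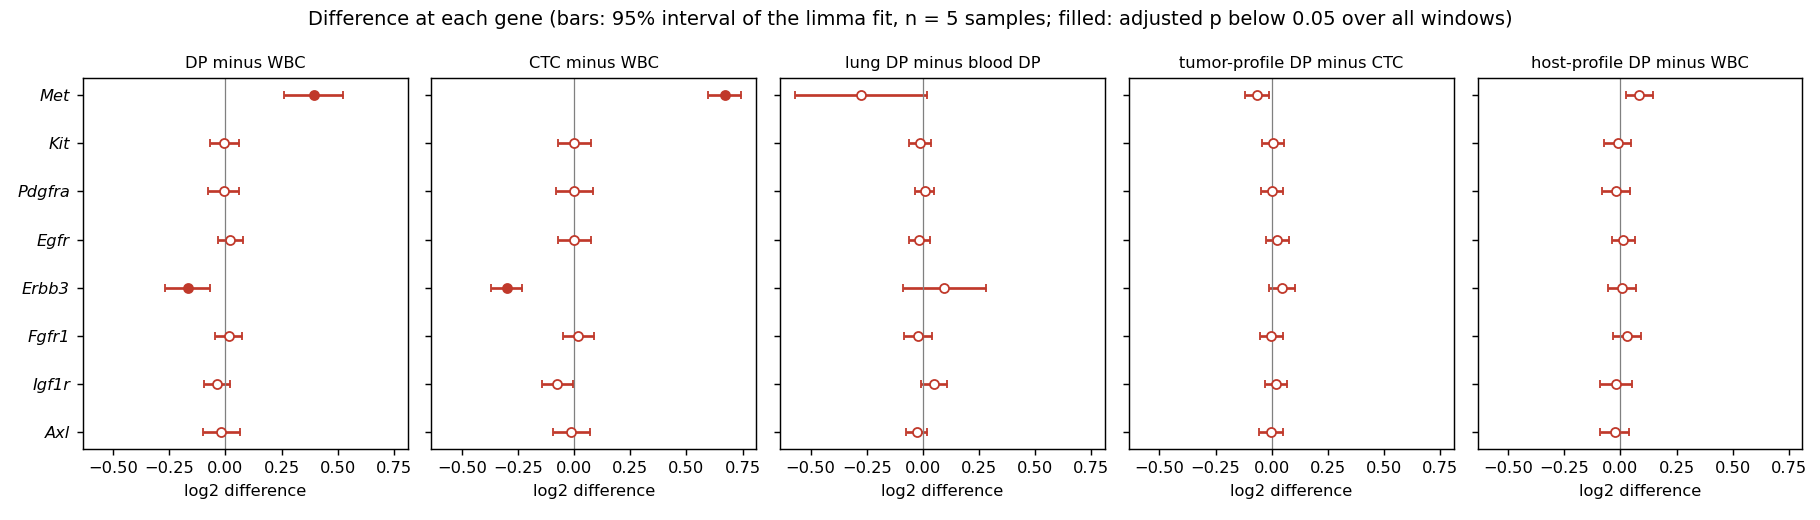
Log2 difference (x axis) at each gene (rows) in 5 comparisons, with 95% intervals of the limma fit over 5 samples and filled points where the adjusted p over all windows is below 0.05. Met and Erbb3 are filled in DP and in CTC against WBC, no gene is filled in the other 3 panels, and lung against blood DP cells has the widest intervals at Met and Erbb3.

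Both altered members sat inside long altered stretches. In CTC against WBC, 235 of the 237 windows of chromosome 6 were higher and none lower. The run of higher tested windows that holds Met went from 3705902 to 43320688 (39.6 Mb, 63 windows). Erbb3 lay in a run of 65 lower windows on chromosome 10, from 92323902 to 130694993 (38.4 Mb), and 93 of that chromosome's 217 windows were lower. Dropped bins inside a run were passed over. Beyond the 2 bins used at Met, the nearest tested windows lay at -1.17 and 1.54 Mb from the gene midpoint. Windows next to Met and Erbb3 share bins with the windows of the genes, so their passing in the same direction is partly built in. The runs themselves reach far beyond the shared bins.

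Kit and Pdgfra lay just outside an altered stretch. The nearest window that passed was 1.82 Mb distal of Kit and 2.26 Mb distal of Pdgfra and fell by 0.10 on the log2 scale. For Igf1r the nearest was at -3.03 Mb, on the proximal side (fell by 0.096), for Egfr 4.71 Mb distal (0.074 higher), for Fgfr1 7.55 Mb distal (0.086 higher) and for Axl 10.5 Mb distal (fell by 0.10).

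**Figure D4:**
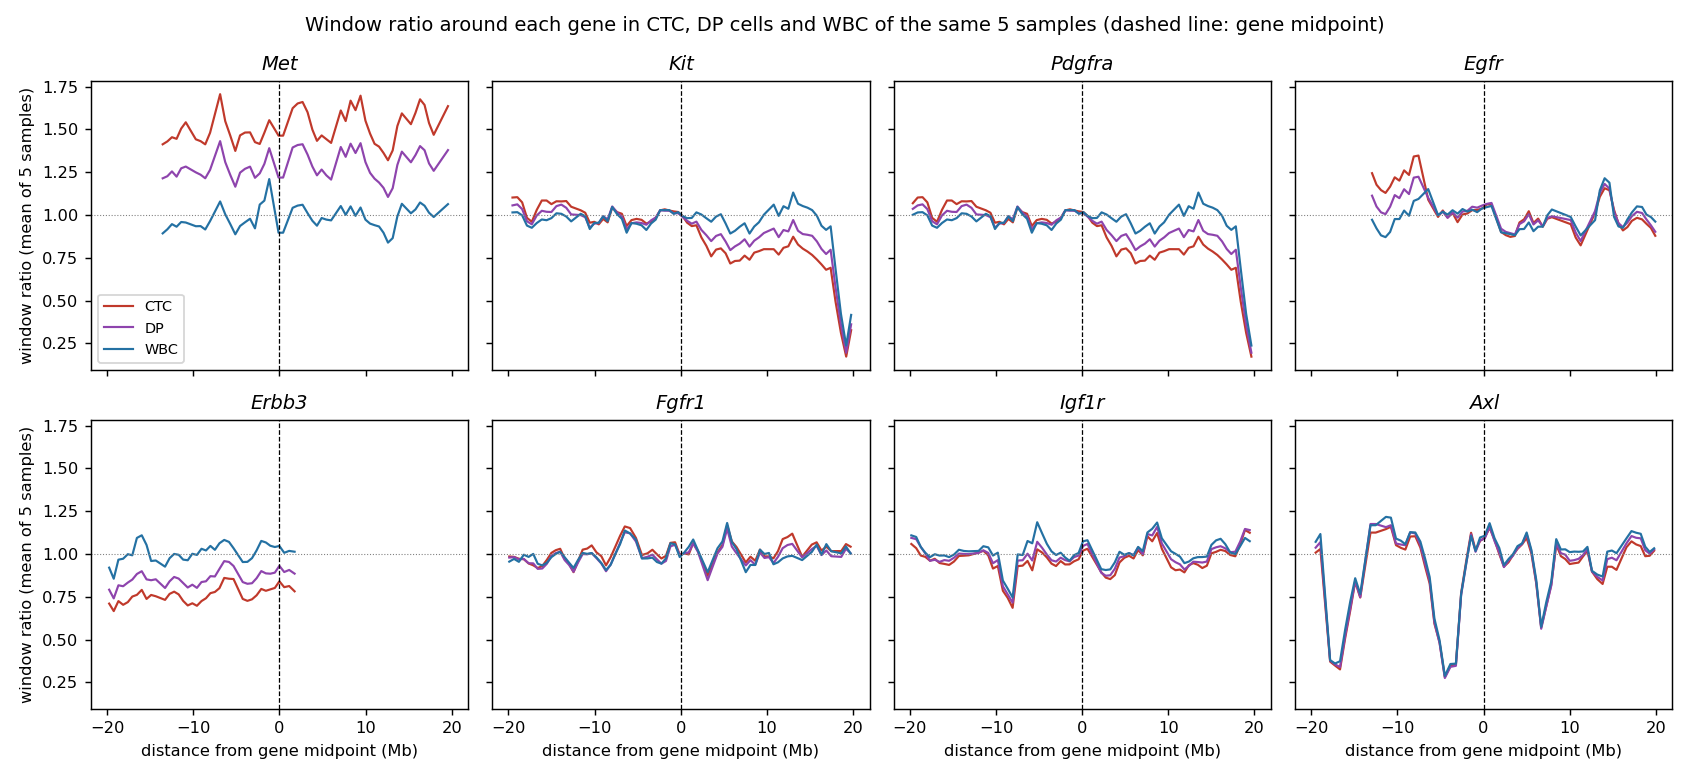
Window ratio (y axis, mean of the same 5 samples) against distance from the gene midpoint in Mb (x axis) for CTC, DP cells and WBC, 1 panel per gene. The 3 lines stay apart across the Met and Erbb3 panels, meet over Kit, Pdgfra and Egfr and part some Mb away, and run close together at Fgfr1, Igf1r and Axl.

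The third bin that belongs to the Met window, on its proximal side (16630942 to 17163888, with Tes and Tfec), was left out because the deposited values stop there. Only the 26 cells with autosomal medians near 7.75 and 9.59 have any value above 10, and 33.8% of all cells stood at exactly 10 in this bin. Its median ratio was 2.55 in CTC, 2.25 in DP cells, 2.03 in WBC of tumor samples and 1.38 in naive WBC. A cell near a median of 1.82 can reach a ratio of 5.49 before this limit and a cell near 3.72 only 2.69, so the classes cannot be compared there.

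With all 3 bins, the Met ratio over cells was 1.79 ± 0.203 in CTC, 1.64 ± 0.430 in DP cells and 1.52 ± 0.635 in WBC (SD over cells). CTC then still rose over WBC, by 0.26 (limma adjusted p = 0.0255), but DP cells differed by 0.043 (adjusted p = 0.754). Each bin that remained gave the same order: the bin over Met averaged 1.57 in CTC, 1.31 in DP cells and 0.955 in WBC, and its distal neighbour 1.40, 1.15 and 0.839. The bin over Met alone gave 0.38 for DP cells against WBC (limma adjusted p = 0.00697).

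DP cells held both kinds of genome, and their Met and Erbb3 ratios followed the profile score computed from other chromosomes. Tumor-profile DP cells averaged 1.42 ± 0.191 at Met and host-profile DP cells 0.967 ± 0.116 (SD over 267 and 183 cells). At Erbb3 they averaged 0.849 ± 0.0971 and 1.04 ± 0.0942. Over the 450 DP cells Pearson's r with the score was 0.834 at Met and -0.714 at Erbb3. At the other 6 genes it lay between -0.10 and 0.05. Cells share samples, amplification and scaling, so these coefficients only describe.

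Tumor-profile DP cells were set against CTC of the same samples to ask whether their receptor loci differ from those of sorted tumor cells. At Met they averaged 1.39 ± 0.0316 against 1.46 ± 0.0698 in CTC (SD, 5 samples), a difference of -0.067 with a 95% interval of -0.12 to -0.014 (limma adjusted p = 0.184). At Erbb3 they averaged 0.870 ± 0.0532 against 0.841 ± 0.0178 in CTC, a difference of 0.045 with an interval of -0.014 to 0.10 (adjusted p = 0.486). None of the 8 genes passed, while 4.43% of all windows did.

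Host-profile DP cells were set against WBC in the same way. At Met they averaged 0.956 ± 0.0390 against 0.897 ± 0.0388 in WBC, higher in 4 of 5 samples by 0.083 on the log2 scale (95% interval 0.023 to 0.14, limma adjusted p = 0.427). At Erbb3 they averaged 1.05 ± 0.0224 against 1.05 ± 0.0474 in WBC, a difference of 0.0056. None of the 8 genes and 0% of windows passed limma's test, with 414 windows below an unadjusted p of 0.05. If DP cells with scores up to 0.75 are counted as host-profile, the Met difference was 0.14 (adjusted p = 0.00749). With the left-out bin of the Met window kept it was -0.17 (adjusted p = 0.388), and among lung cells only it was -0.0011.

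Lung and blood DP cells differed at Met in opposite ways in different samples. In C1L, C1N, C1R and C2R lung DP cells averaged 0.958, 0.906, 0.964 and 1.03, against 1.36, 1.16, 1.34 and 1.36 in blood DP cells. In P1 lung DP cells averaged 1.34 and blood DP cells 1.10. Over the 5 samples the difference was -0.28 with a 95% interval of -0.57 to 0.019 (limma adjusted p = 0.241). At Erbb3 lung DP cells averaged 1.08, 0.990, 1.02, 0.991 and 0.908 in C1L, C1N, C1R, C2R and P1, against 0.914, 1.02, 0.910, 0.803 and 1.02 in blood DP cells. Lung was the higher in C1L, C1R and C2R and the lower in C1N and P1. The difference was 0.095 (adjusted p = 0.389), and 0% of windows passed, with 432 below an unadjusted p of 0.05.

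Sample P1, the only sample with a P name among the 5, decided that outcome. Without P1, lung DP cells were lower than blood DP cells by 0.41 at Met (limma adjusted p = 0.000142) and higher by 0.16 at Erbb3 (adjusted p = 0.0363, in 3 of the 4 samples left), with 46.8% of all windows past the threshold. Each of the 5 samples was left out in turn, and this omission is shown because P1 ran the other way at Met. The p-values without P1 therefore do not measure chance. The share of tumor-profile cells moved with the ratio. It was 0% of 7 lung DP cells in C1L, 0% of 14 in C1N, 2.94% of 34 in C1R and 24% of 25 in C2R, against 90.9%, 36.4%, 91.3% and 100% in blood DP cells. In P1 it was 72.3% of 47 lung DP cells and 23.9% of 46 blood DP cells. Samples with DP cells from 1 tissue could not be paired. Among them it was 0% of 15 lung cells in C2N and 91.4% of 35 in P2. In blood it was 90.1% of 81 cells in C3R and 41.4% of 29 in P4. Whether the split goes with the C and P sample names was not tested. The 0 counts in C1L, C1N and C2N allow up to 42.9%, 21.4% and 20%.

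Within a profile the tissues differed less at Met than they did over all DP cells of the same sample. Tumor-profile DP cells averaged 1.46 in lung and 1.45 in blood of P1, and 1.41 in lung and 1.36 in blood of C2R. Host-profile DP cells averaged 1.01 in lung and 0.992 in blood of P1, and 0.906 in lung and 1.04 in blood of C1N. At Erbb3 this held in P1 and C2R but not in C1N. Tumor-profile DP cells averaged 0.854 in lung and 0.875 in blood of P1 at Erbb3, and 0.844 in lung and 0.803 in blood of C2R. Host-profile DP cells of C1N averaged 0.990 in lung and 1.07 in blood at Erbb3, a wider gap than over all its DP cells. These values rest on 6 to 39 cells a group and were not tested.

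The coverage level of a DP cell also went with its Met and Erbb3 ratios. Met averaged 0.960, 1.45, 1.26, 1.11 and 1.37 in DP cells near autosomal medians of 1.82, 3.72, 5.64, 7.75 and 9.59. Erbb3 averaged 1.04, 0.842, 0.896, 1.02 and 0.831 at the same levels. The lowest level lay near the WBC mean, the next near the CTC mean, and the 9 cells near 7.75 stood closer to WBC than their neighbours on either side. The 38 DP cells near 5.64 and 7.75, from 8 samples, averaged 1.23 ± 0.150 at Met and 0.925 ± 0.106 at Erbb3 (SD over cells).

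**Figure D5:**
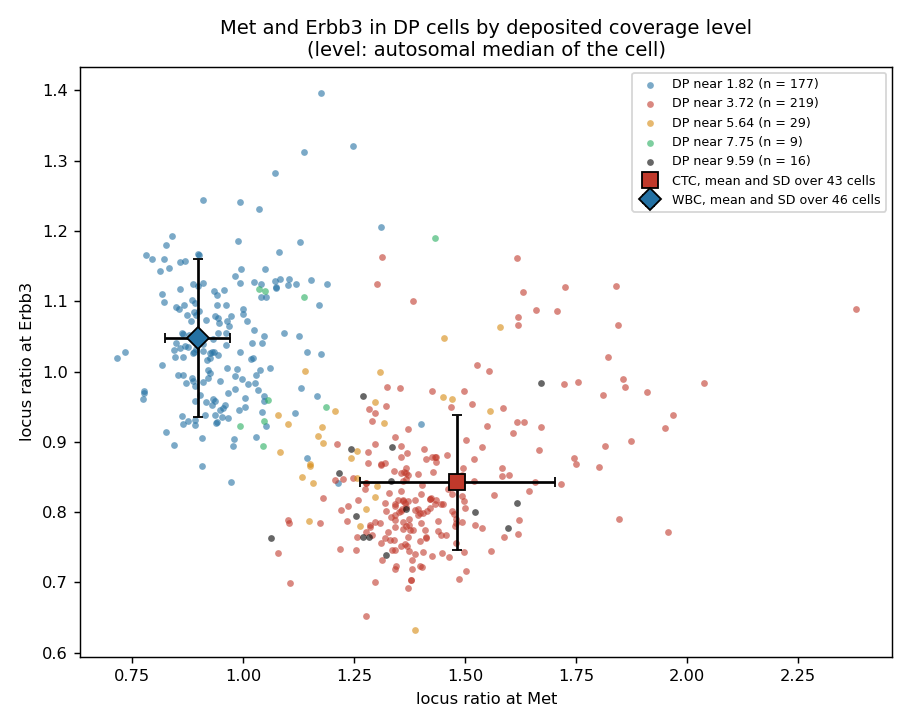
Locus ratio at Erbb3 (y axis) against that at Met (x axis) for 450 DP cells (points, coloured by coverage level), with the mean and SD over cells of CTC (square) and WBC (diamond). Cells near 1.82 gather around the WBC mean and cells near 3.72 around the CTC mean, with cells near 5.64 mostly between them and cells near 7.75 nearer the WBC mean.

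The spread among cells of the same sample was compared as well, in a design of 5 pairs that cannot reach 0.05. At Met the SD over cells of the log2 ratio had a mean of 0.280 for DP cells against 0.106 for WBC. It was wider for DP cells in every one of the 5 samples, with p = 0.0625 by an exact sign-flip test (two-sided), which is the lower bound for 5 pairs. Across all windows DP cells were wider than WBC in 92.4%, with median SDs of 0.158 and 0.0988, and 7.45% of windows widened as much as Met. Fgfr1 was also wider in 5 of 5 samples, with SDs of 0.116 in DP cells and 0.0849 in WBC (exact p = 0.0625). Erbb3 had SDs of 0.172 in DP cells and 0.123 in WBC and was wider in 4 of 5 samples (exact p = 0.125). The share of all windows that widened as much was 73.3% for Fgfr1 and 56.4% for Erbb3, so neither stood out as Met did. Set against CTC, tumor-profile DP cells had SDs of 0.168 and CTC 0.171 at Met (exact p = 1), and 16 such tests were run in all.

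The single-sample controls gave the scale of these differences, without a test. At Met the classes ranked PltLike 1.51 ± 0.197, CTC, Duplike 1.44 ± 0.174, culture 1.35 ± 0.115, DP 1.23 ± 0.276, CDP 1.22 ± 0.0956, WBC 0.897 ± 0.0735 and naive WBC 0.886 ± 0.0746 (SD over cells). CTC lay between PltLike and Duplike. Neighbours in this order differed by less than the larger of their SDs, except CDP and WBC. At Erbb3 the order from the bottom was culture 0.725 ± 0.0544, CDP 0.818 ± 0.0440, CTC 0.843 ± 0.0960, PltLike 0.863 ± 0.0975, Duplike 0.899 ± 0.0977, DP 0.928 ± 0.136, naive WBC 0.987 ± 0.0628 and WBC 1.05 ± 0.113. The step between culture and CDP exceeded both SDs, and no other step did.

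The culture was lower at Erbb3 than any CTC sample. CTC stood 0.20 above the culture on the log2 scale, with samples between 0.17 and 0.23, while culture minus naive WBC was -0.42. WBC of tumor samples stood 0.077 above naive WBC at Erbb3, with samples between 0.028 and 0.17. Fgfr1 showed a similar offset, 0.15 for CTC over culture and 0.079 for WBC over naive WBC. Culture and naive WBC are 1 sample each, so no spread between samples is known for them.

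The other receptor tyrosine kinases passed in both directions. Of 50 listed, 48 were tested in 44 separate windows (not Epha2 and Ephb6). In DP cells against WBC 8 rose, 9 fell and 31 did not pass, with a median difference of -0.0054 (all windows -0.0099). Of all windows 15.3% rose and 25.8% fell in that comparison. In CTC against WBC 9 rose, 11 fell and 28 did not pass, with a median of -0.020 (all windows also -0.020), where 19.8% of all windows rose and 30.6% fell. Styk1, on chromosome 6 like Met, rose by 0.30 in DP cells (SE 0.0774, limma adjusted p = 0.0198). Tie1, an endothelial receptor on chromosome 4, fell by 0.24 (SE 0.0320, adjusted p = 0.00890), and the ephrin receptors Epha8 and Ephb2, in 1 bin of chromosome 4, fell by 0.22 (SE 0.0458, adjusted p = 0.0103).

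Ligands of the members were measured as genes too. Of 19 listed 18 were tested (not Nrg1), in 16 separate windows. In DP cells against WBC 3 rose (Pdgfc, Tgfa and Fgf2), 8 fell and 7 did not pass, with a median of -0.020, where 15.3% of all windows rose and 25.8% fell. The counts were the same for CTC against WBC with a median of -0.088, where 19.8% of all windows rose and 30.6% fell. Pdgfc, a ligand of Pdgfra, rose by 0.37 in DP cells (SE 0.0641, limma adjusted p = 0.00890), with ratios of 1.42 in CTC, 1.22 in DP cells and 0.907 in WBC. Tgfa, a ligand of Egfr that shares chromosome 6 with Met, rose by 0.30 (SE 0.0588, adjusted p = 0.00942).

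Among the falling ligand genes, Btc and Areg, both ligands of Egfr, share a bin on chromosome 5 and fell by 0.24 (SE 0.0567, limma adjusted p = 0.0152), and Ereg and Epgn share another there and fell by 0.23 (SE 0.0617, adjusted p = 0.0223). Hbegf and Nrg2 fell by 0.19 and 0.16 and Fgf1 by 0.21, all 3 on chromosome 18. Kitl, the ligand of Kit and a chromosome 10 gene like Erbb3, fell by 0.23 (SE 0.0595, adjusted p = 0.0201), with ratios of 0.761 in CTC, 0.907 in DP cells and 1.01 in WBC, while Kit itself was level. For Met the reverse held: the receptor rose and Hgf, on chromosome 5, did not pass (0.014, adjusted p = 0.810). Igf1, Igf2 and Gas6, the ligands of Igf1r and Axl, did not pass either. DNA coverage was measured here, not RNA or protein.

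Of 18 adaptors and brakes of receptor signalling 17 were tested (not Cblb). In DP cells against WBC 3 rose, 2 fell and 12 did not pass, with a median of 0.0071, where 41.2% of all windows passed in either direction. The counts were the same in CTC against WBC with a median of 0.019, where 50.3% of all windows passed. Shc1, an adaptor of activated receptors, rose by 0.29 (SE 0.0422, limma adjusted p = 0.00890), Lrig1, which restrains ErbB receptors and Met, by 0.26 (SE 0.0628, adjusted p = 0.0166), and Pik3ca, the PI3 kinase catalytic subunit, by 0.16. The feedback inhibitors Spry2 and Errfi1 fell by 0.19 (SE 0.0379, adjusted p = 0.00973) and 0.17 (SE 0.0377, adjusted p = 0.0125). None of the genes in these 3 lists passed in tumor-profile DP cells against CTC, in host-profile DP cells against WBC or in lung against blood DP cells.

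Over the 450 DP cells, the receptor tyrosine kinase on another chromosome most like Erbb3 was Pdgfrb (Pearson's r = 0.768, 54 candidates). For Kit, Pdgfra, Egfr, Fgfr1, Igf1r and Axl the highest coefficient lay between 0.10 and 0.24. Met and Erbb3 themselves gave r = -0.458 over all DP cells but 0.320 over the 267 tumor-profile DP cells and 0.671 over the 43 CTC. Kit and Pdgfra gave 0.846, with 2 shared bins. All these cells share amplification and scaling, and the coefficients carry no test.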

How the data were processed

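Single-cell DNA libraries of 648 cells in 14 samples were used. The deposited values are a normalised coverage signal per genome bin and cell that the authors made; its scaling and its limit at 10 are not given in the sources used here. Trim Galore, BWA, Picard and SAMtools appear, with build mm10, among the tools listed per the submitters' processing notes. Sample, tissue and class of each cell came from the deposited cell table. Gene positions are from RefSeq GRCm38.p6, the mm10 assembly.

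Bins where 1% of cells or more stood at exactly 10 were dropped, which kept 4120 of 4424 autosomal and 256 of 290 X bins. Each kept bin and its kept neighbours formed a window. Ratios were averaged as log2(ratio + 0.05) over cells of a class in a sample (at least 3 cells) and fitted with limma 3.58.1 (R 4.3.3) with the sample as a block, because classes of 1 sample share that sample by the labels. Same-sample deviations correlated between -0.044 and 0.338 for DP cells and WBC. For lung and blood DP cells the correlations were mixed in sign: -0.473 in C1L, 0.825 in C1N, -0.669 in C1R, 0.484 in C2R and -0.850 in P1. Benjamini-Hochberg adjustment at 5% covered 4376 windows. Log2 differences are on the log2(ratio + 0.05) scale. The fit was tried on simulated data with noise drawn separately for each window, unlike neighbouring windows here, which share bins. Tables and figures were made with matplotlib 3.10.9, scipy 1.17.1, pandas 2.3.3 and numpy 2.4.6 under Python 3.11.15.

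The members and gene lists were chosen with earlier results of these data known. Beyond the members, the 3 receptors per direction and the 2 ligands and 2 adaptors per direction with the largest passing difference in DP cells against WBC were named, with ligands beside their receptor; some results that this rule and the likeness rule give are not reported here; Fgf2, Fgf1, Hbegf, Nrg2, Ereg, Epgn, Kitl and Pik3ca were named as members of their list that passed. Alternatives covered the pseudocount, bins per window, bins at the limit, scaling, median over cells, minimum cells, noisy cells, the sample block, tissue, score limit and each sample left out. No sequence is printed, since bins of this width do not resolve one.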

Additional observations from a re-analysis of the deposited data

Results flagged for a closer look

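The Kit ratio of CTC in sample C1N was 1.04 (6 cells), apart from the other 4 CTC samples, of which the nearest had 0.984. Among 24 groups of samples checked for a stray value this was 1, and chance gives about 1.2. The Met-window bin that entered no test had a mean ratio of 2.76 ± 1.86 in WBC of tumor samples and 1.68 ± 1.03 in naive WBC (SD over 46 and 21 cells). It stood at the deposited limit of 10 in 23.9% of WBC of tumor samples and in 4.76% of naive WBC. Naive WBC are 1 sample, so the difference has no replicate check.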

How the results depend on the processing

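In CTC against WBC the calls at Met and Erbb3 held in all 18 alternatives run, with differences of 0.26 to 0.70 and -0.37 to -0.26. In DP cells against WBC 1801 windows passed; taking the median over cells gave 0 (1812 at an unadjusted p below 0.05), at least 5 cells per class 1001, lung cells only 0 (186 unadjusted), and leaving out 1 sample 1001 to 1802 (1001 without C1L and 1093 without C2R). Met kept its call in 15 of 18 alternatives and lost it with the median (0.38, adjusted p = 0.0587), lung cells only (0.053, adjusted p = 0.926) and bins at the limit kept (0.043). Erbb3 kept its call in 10 of 18; it was 0.0010 with lung cells only (adjusted p = 0.997), and -0.19 with the median, -0.17 with at least 5 cells and -0.12 with less noisy cells (adjusted p = 0.0587, 0.0613 and 0.0885). Lung against blood DP cells gave 0 windows, and 0 to 2046 on leaving out 1 sample. Tumor-profile DP cells against CTC gave 194: the midpoint bin alone gave 129, bins at the limit kept 310, the median 0 (469 unadjusted), a score limit of 0.75 0 (349 unadjusted), and leaving out 1 sample 125 to 196 (128 without C1R, 125 without C2R). Host-profile DP cells against WBC gave 0, and 380 with a score limit of 0.75. Without the sample block DP cells against WBC gave 1824 windows, CTC against WBC 2162, and tumor-profile DP cells against CTC 0 (221 unadjusted); it ended no call at a member. The causes were not tested. Lung cells alone could not be fitted for tumor-profile DP cells against CTC. The coverage limit at 10 keeps ratios at or below 2.69 in cells near 3.72 and 1.77 in cells near 5.64, and the read depth is unknown.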
